A study of Drosophila melanogaster with 18 samples.

Results

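The genes described here are 223 well-expressed, mostly non-coding Drosophila genes that carry only a CR number as their symbol. A CR number marks a computed gene without an accepted protein product. Of 17658 genes in the expression tables, 2611 had such a symbol, 2456 of these had a locus of at least 300 bp, and 223 also had a mean of at least 5 FPKM over the 18 libraries. FPKM is a fragment count relative to transcript length and library size. Another 860 CR genes were listed at 0 in every library. Members were chosen by this mean over all libraries, so their level is a description. The differences between groups were not used in the choice, although 7 members would fall under 5 FPKM without the group in which they were highest. That count leaves out only the highest group, so it misses members carried over the threshold by several groups together. CR44138 and CR45018, described below, are such members, and the full number of them was not counted.

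RNA came from whole adult female flies aged 1 to 5 days, kept at 25 °C, in 6 groups of 3 libraries with 10 flies in each library. Knockdown flies (w;;Da-GAL4/UAS-Tudor-SN RNAi) expressed an RNAi construct against Tudor-SN under the ubiquitous daughterless driver. Control flies (w;;+/UAS-Tudor-SN RNAi) carried the same construct without the driver, so the construct is shared by all groups, and an effect of the driver itself cannot be told apart from the knockdown. Flies of each genotype were held in normal air or for 6 h in 6% O2 or 2% O2. A single RNAi construct was used, and the p-values measure the spread between these pools of flies.

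Tudor-SN is a conserved RNA-binding protein with nuclease-like domains that has been linked to RNA silencing, splicing and stress granules. Long non-coding RNAs are transcribed and often polyadenylated but yield no accepted protein. Antisense RNAs are read from the strand opposite another gene and can share bases with its exons, and pseudogenes are copies that have lost their coding function. In whole flies a bulk level sums all tissues, so fewer cells of a type and less RNA per cell cannot be told apart.

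Tudor-SN itself was the check of the labels. It lay between 209.7 and 218.0 scaled FPKM in control normoxia libraries and between 18.2 and 20.8 in knockdown normoxia libraries, which is 9.28% of control. The knockdown kept 7.33% of the control level at 6% O2 and 3.32% at 2% O2 (exact 2-sided permutation p = 0.1 at each oxygen level, the smallest that 3 against 3 libraries allow). In the limma fit described below the adjusted p was at most 1.41e-13. Relative depth, estimated from the steps between low values, was between 0.975 and 1.025 in all libraries except knockdown 2% O2 replicate 3 (0.885). That library also lay apart from its 2 partners on a principal component of all genes, and the counts at 2% O2 against the other oxygen levels in knockdown are also given without it. The hypoxia-inducible lactate dehydrogenase gene ImpL3 rose from 6.21 ± 0.628 to 99.4 ± 9.12 scaled FPKM in controls at 2% O2 (SD, n = 3).

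The reference annotation of the same build classed 144 members as antisense RNA, 41 as lncRNA and 37 as pseudogene, and now lists 1, CR43051, as protein-coding. The loci were short, with a median of 950 bp and a range from 301 to 107223 bp, and 110 members had a single exon. Chromosome arm 3L held 61 of them, 3R 50, 2L 41, X 36, 2R 30 and chromosome 4 held 5.

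Most members share bases with another gene. The loci of 186 members overlapped another locus, 133 of them over their whole length. In 174 the exons themselves overlapped those of another gene, 155 of these on the opposite strand, and the overlapping gene was protein-coding in 167. In 132 members at least 50% of the exonic bases lay under exons of the opposite strand. The overlapping gene had the higher FPKM in 92 of the 174 pairs. The strandedness of the libraries is not given in the sources used here, so for bases that lie in exons of both genes, reads of the member and of the overlapping gene cannot be told apart. The other 49 members had no exonic base under another gene's exon.

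Levels were modest. The median member had a mean of 16.2 FPKM, against 25.2 for the 9921 genes whose mean reached 1 FPKM. Of the members, 9 reached 100 FPKM, 82 lay between 20 and 100, and 132 between 5 and 20. The median was 16.5 FPKM for antisense RNAs, 13.2 for lncRNAs and 12.8 for pseudogenes. All members together held 0.838% of the summed FPKM of a library on average.

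**Figure D1:**
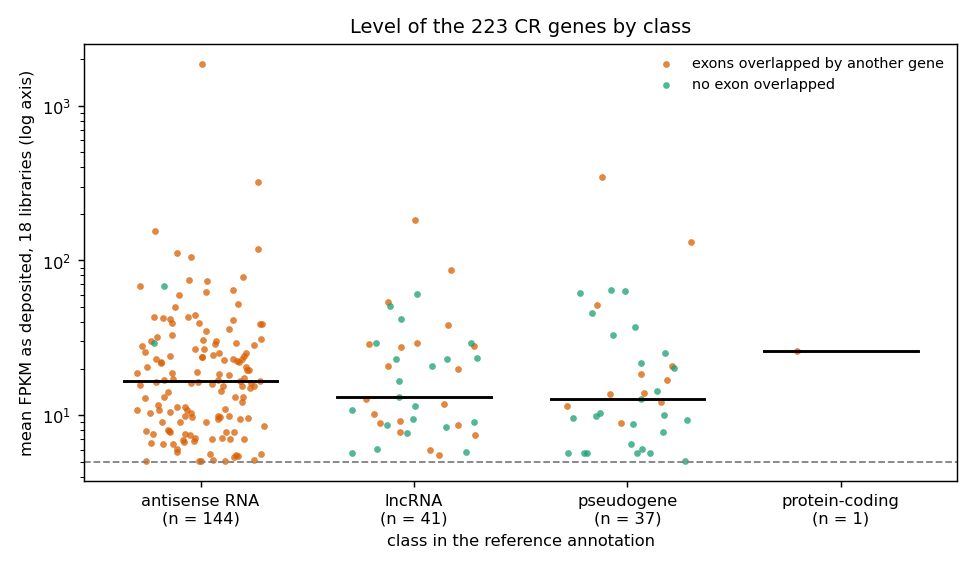
Mean FPKM of each of the 223 members over the 18 libraries, as deposited, on a log axis, by class in the reference annotation. Each point is a gene, orange where another gene's exons overlap its own and green where none do, the black bars are class medians, and the dashed line is the threshold of 5 FPKM. The highest point is CR45601, and the class medians lie between 12.8 and 16.5 apart from the single protein-coding gene.

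The threshold cut a continuous range of levels. Just inside it lay CR45907 with a mean of 5.04 FPKM, CR45189 with 5.04 and CR45192 with 5.06. Just outside lay CR46123 with 4.99, CR43906 with 4.98 and CR45001 with 4.97. By length, CR46147 (301 bp), CR43264 (318 bp) and CR45865 (328 bp) were just inside, and CR45045 (249 bp), CR44404 (228 bp) and CR40469 (214 bp) just outside. CR40469 had a mean of 5383 FPKM, above every member.

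The most abundant member was CR45601 on X, an antisense RNA of 875 bp whose single exon lies wholly under exons of the yolk protein gene Yp1. Since strandedness is not given, reads of CR45601 and of Yp1 cannot be told apart over this exon, and the level may hold reads of Yp1. CR45601 ranged from 1009 to 3189 scaled FPKM over the libraries. Knockdown 2% O2 libraries had 3183, 2045 and 3189 scaled FPKM, all above the 1269, 1977 and 1450 of knockdown normoxia (log2 change 0.84 ± 0.30 SE, adjusted p = 0.0295 by limma). Yp1 is made in fat body and ovarian follicle cells, and the ratio of CR45601 to Yp1 stayed between 2.31 and 3.03 in every library. The 8 fat body and yolk genes found, of which 2 of 6 tested rose and 1 fell in that comparison, summed to between 3155 and 5066 scaled FPKM in the knockdown 2% O2 libraries and to between 1573 and 3850 in the other libraries. Their part in the change of CR45601 was not tested.

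The next 5 members by level varied less. CR43482, a pseudogene on 3L, ranged from 248 to 431 scaled FPKM and passed the test in no comparison. CR45926, antisense to the histone chaperone gene Nap1, had group means between 300.005 and 343, and its ratio to Nap1 lay between 1.11 and 1.32 in all libraries. CR42862, an lncRNA of 6859 bp on 3L, fell in knockdown at 6% O2 from 228, 198 and 200 to 153, 127 and 158 (log2 change -0.51 ± 0.13, adjusted p = 0.0161). Its same-strand neighbour CG33229, with which 4.48% of its exonic bases overlap, rose in that comparison (log2 change 0.30, adjusted p = 0.00132). CR45874, antisense to the ribosomal protein gene RpS9, had 140 ± 10.3 scaled FPKM in control normoxia and 187 ± 15.7 in knockdown 2% O2. CR42842, a pseudogene opposite the hairpin RNA gene hpRNA:CR32207, kept group means between 117 and 142.

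Over the 6 groups the median member spanned 1.33-fold between its lowest and highest group mean. A span of at least 2-fold was seen in 24 members and one of at least 4-fold in 6. The coefficient of variation over the 18 libraries ran from 4.27% for CR45970, which lies opposite Ssl1 and had between 24.9 and 28.5 scaled FPKM, to 134% for CR44138. After CR44138 the most variable were CR45018, CR43468 and CR43196, all described below.

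Changes were tested by limma on log2(scaled FPKM + 1) over 9921 genes with Benjamini-Hochberg adjustment, and a gene is called where the adjusted p is under 0.05. All 223 members were tested. Fold changes on this scale understate those of low genes.

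Knockdown against control asks what loss of Tudor-SN changes at each oxygen level. In normoxia 8 members were higher and 17 lower, which is 11.2% of the members against 16.0% of all genes (5.90% higher, 10.1% lower). At 6% O2 there were 18 higher and 21 lower (17.5% against 24.7%), and at 2% O2 13 higher and 23 lower (16.1% against 20.2%). Of all genes 12.0% were higher and 12.6% lower at 6% O2, against 8.07% and 9.42% of the members. At 2% O2 11.7% of all genes were higher and 8.50% lower, against 5.83% and 10.3% of the members. At 1 or more oxygen levels 75 members were called, where 43.4% of all genes were. Libraries of the genotypes did not overlap for 75 members in normoxia (40.6% of all genes), 81 at 6% O2 (46.3%) and 54 at 2% O2 (35.1%). Counting both directions, the share of members called was below that of all genes in each of these, while the share called lower at 2% O2 was above it, and this difference was not tested. The median change of the members lay between -0.02 and 0.01 on the log2 scale. The count in normoxia fell from 25 to 13 without control replicate 3, to 15 without knockdown replicate 1 and to 14 without knockdown replicate 2. At 6% O2 it fell from 39 to 10 without control replicate 1 and to 13 without knockdown replicate 2 or 3, and at 2% O2 from 36 to 22 without control replicate 1 and to 19 without control replicate 3. Markers of some tissues moved with genotype. Of 15 muscle markers 5, 4 and 2 were lower in knockdown at normoxia, 6% and 2% O2, and none was higher. Of 15 gut markers 5, 4 and none were lower, and 1 was higher at 2% O2. Of 20 female germline markers 5, 5 and 3 were higher, and 1 was lower at 6% O2 and 1 at 2% O2. The muscle sum ran from 5331 to 8238 scaled FPKM in control and from 3686 to 4378 in knockdown normoxia, and the gut sum from 4700 to 5879 and from 2772 to 4169. Their part in the members' changes was not tested.

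**Figure D2:**
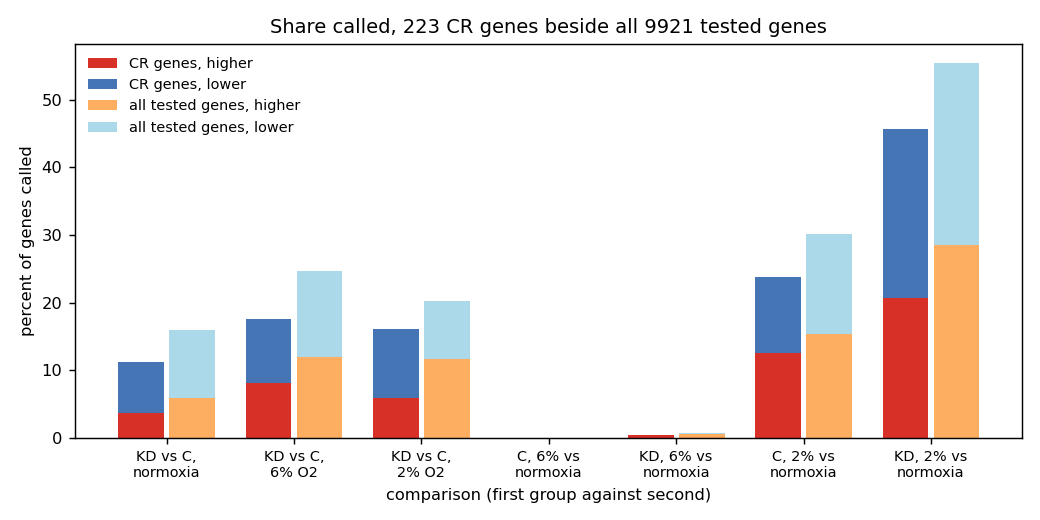
Percent of the 223 members and of all 9921 tested genes called higher or lower (adjusted p under 0.05, limma) in knockdown (KD) against control (C) at each oxygen level and in low oxygen against normoxia within each genotype. The bars are stacked from 0, and the members' bar is below that of all genes wherever genes were called, as in knockdown flies at 2% O2 with 45.7% against 55.4%.

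The test called 6 members lower in knockdown at all 3 oxygen levels and none higher, which is 2.69% of the members against 2.93% of all genes (1.91% lower). The 3 comparisons share no library. These 6 are CR42254, CR44417, CR43361, CR45894, CR46050 and CR45275. Leaving out single libraries gave between 4 and 6 such members. Fits of the compared groups alone gave 3, and array weights gave 10, of which 1 was higher.

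CR42254 lies at bases 14769599 to 14771295 of 2R, with 34.8% of its exonic bases under exons of BEAF-32, the gene of a chromatin insulator protein. Control libraries had 10.7, 11.2 and 10.3 scaled FPKM in normoxia, 9.68, 11.6 and 9.01 at 6% O2 and 10.7, 9.85 and 9.39 at 2% O2. Knockdown libraries had 5.27, 5.64 and 5.31, then 6.55, 6.75 and 3.85, then 4.81, 5.02 and 3.42. Every knockdown library was below every control library, whatever the oxygen level. The log2 changes were -0.87, -0.75 and -1.03 (SE 0.16 each, adjusted p = 0.00274, 0.00463 and 0.000324). The call at 6% O2 was lost in a fit of the compared groups alone (adjusted p = 0.0506). BEAF-32 was not called in these comparisons, with log2 changes between -0.13 and 0.07, and the ratio of CR42254 to BEAF-32 fell from a mean of 0.0918 to 0.0507 in normoxia.

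CR44417, an lncRNA with a single exon on 2R, lies within the locus of Mapmodulin but shares no exonic base with it. It had 30.1, 30.4 and 30.3 scaled FPKM in control normoxia and 19.9, 18.7 and 21.0 in knockdown normoxia (log2 change -0.58 ± 0.13, adjusted p = 0.0111). At 2% O2 it had 23.2, 23.3 and 27.0 in controls and 12.5, 11.4 and 19.9 in knockdown (log2 change -0.74, adjusted p = 0.00139). The groups did not overlap at any oxygen level, but the call at 6% O2 (-0.43) was lost without any single library except control replicate 3, and that at 2% O2 in a fit of the compared groups alone. The highest of the knockdown 2% O2 values came from replicate 3, the library of lower depth.

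CR43361, on chromosome 4, is annotated as a pseudogene, and 92.5% of its exonic bases lie under exons of unc-13, a synaptic vesicle priming gene. Its means fell from 12.5 ± 1.01 in control normoxia to 8.28 ± 1.06 in knockdown normoxia, from 10.6 ± 0.704 to 6.61 ± 0.984 at 6% O2 and from 9.19 ± 0.667 to 6.46 ± 0.564 at 2% O2. The log2 changes were -0.54, -0.62 and -0.45, with adjusted p of 0.00474, 0.00158 and 0.00793. No library of one genotype reached the other at the same oxygen level. unc-13 was not called in these comparisons (log2 changes from -0.17 to -0.01). CR43361 was also lower at 2% O2 than in normoxia in controls (log2 change -0.40, adjusted p = 0.00973) and in knockdown (-0.31, adjusted p = 0.0206).

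CR46050, opposite CG42671 on 3L, had 21.8 ± 2.14 scaled FPKM in control and 15.2 ± 1.98 in knockdown normoxia (log2 change -0.50 ± 0.14, adjusted p = 0.0234). At 6% O2 the change was -0.69 and at 2% O2 -0.42, while CG42671 moved by 0.07 to 0.12 and was not called. The calls of CR46050 were lost without any of 4 single libraries in normoxia and any of 5 at 2% O2, and held at 6% O2. CR45275 is an antisense RNA of 552 bp on 2R. It had 121 ± 5.60 scaled FPKM in control normoxia against 2.62 ± 0.242 for CG14483, the gene over 83.0% of its exonic bases. It fell by 0.36 in normoxia from 116, 120 and 127 to 92.8, 95.1 and 94.3 (adjusted p = 0.00976). At 6% O2 its change of -0.23 had an adjusted p of 0.0494 and was lost under 11 of 16 alternatives, among them each left-out library of that comparison. At 2% O2 its change of -0.27 (adjusted p = 0.0281) was lost without any single library except knockdown replicate 3.

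CR45894 lies opposite Pdh, a photoreceptor dehydrogenase gene of the visual cycle, at bases 16353498 to 16353916 of 3L, with 84.7% of its exonic bases under Pdh exons. It fell in knockdown normoxia from 17.2, 12.9 and 15.5 scaled FPKM to 10.1, 8.68 and 10.2 (log2 change -0.60 ± 0.09, adjusted p = 0.00116). It fell by 0.77 at 6% O2 (adjusted p = 0.000152) and by 0.39 at 2% O2 (adjusted p = 0.00831), with no overlap between the genotypes at any level of oxygen. Pdh was lower by 0.84 in normoxia and by 0.77 at 6% O2 (adjusted p = 0.000643 and 0.000766). At 2% O2 Pdh had a log2 change of -0.12 and was not called. Of 15 photoreceptor markers 7 were lower in knockdown normoxia, 10 at 6% O2 and 4 at 2% O2, and none was higher. Their summed level ran from 1972 to 2716 scaled FPKM in control normoxia and from 1825 to 2069 in knockdown normoxia, and none of the 15 had a mean under 1 FPKM. Their part in the fall of CR45894 was not tested.

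**Figure D3:**
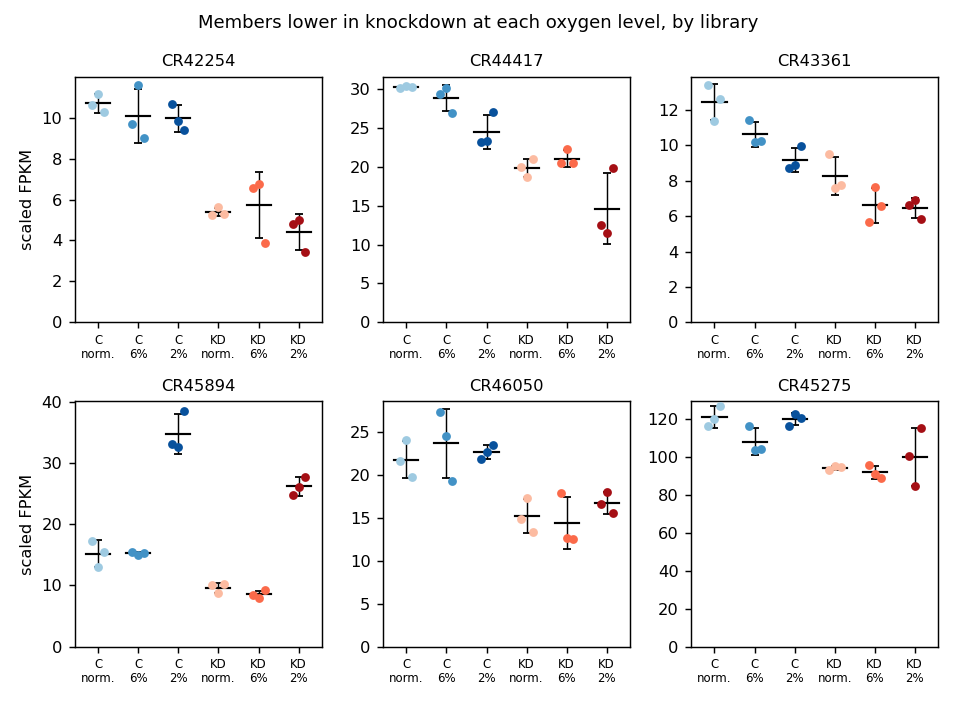
Scaled FPKM of the 6 members called lower in knockdown (KD, red) than in control (C, blue) at normoxia, 6% O2 and 2% O2, on linear axes from 0. Points are libraries, the long bars are group means and the whiskers are SDs (n = 3). CR42254 sits between 9.01 and 11.6 in every control library and between 3.42 and 6.75 in every knockdown library, and CR45894 also rises at 2% O2 in both genotypes.

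Other members passed the test at some oxygen levels and not at others, which does not show that the levels differ. CR31781, an lncRNA of 8955 bp on 2L with no gene over it, had the largest fall in normoxia. It had 80.4, 71.0 and 82.7 scaled FPKM in control and 39.9, 38.3 and 38.1 in knockdown, so every knockdown library was far below every control (log2 change -0.99 ± 0.19, adjusted p = 0.00434). At 2% O2 the knockdown libraries spread from 32.5 to 71.9, and the change was -0.58 (adjusted p = 0.0405). CR44321, opposite the aldolase gene Ald, fell from 6.13 ± 0.792 to 2.97 ± 0.921 in normoxia (log2 change -0.87, adjusted p = 0.00712). It is one of the 7 members that reach 5 FPKM only through their highest group, here control 2% O2. Ald, a glycolytic gene at 895 ± 48.8 scaled FPKM in control normoxia, was also lower in knockdown normoxia (-0.69, adjusted p = 0.0269).

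CR43196 had the largest fall at 6% O2. This lncRNA at bases 17382129 to 17382767 of 3R lies in the locus of lute on the opposite strand and shares no exonic base with it. Control 6% O2 libraries had 22.2, 19.7 and 19.5 scaled FPKM, and the knockdown libraries had 5.18, 5.10 and 5.13. The groups lay far apart, with a log2 change of -1.80 ± 0.31 and an adjusted p of 0.00168. lute was level, with a log2 change of -0.03. At 2% O2 the change of -0.98 had an adjusted p of 0.0359 and was lost without control replicate 2 or 3, without knockdown replicate 1 or 2, and in a fit of the compared groups alone. CR43264, an lncRNA of 318 bp on X, fell at 6% O2 from 16.4 ± 1.67 to 7.32 ± 2.78 (log2 change -1.11, adjusted p = 0.0151), and CR46129, opposite the esterase gene alpha-Est2, from 9.79 ± 2.17 to 5.26 ± 1.29 (-0.79, adjusted p = 0.00992). The call for CR43264 was lost without control replicate 1 or knockdown replicate 2, and that for CR46129 without control replicate 1.

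The members that rose in knockdown normoxia rose little. All 8 were antisense RNAs, and the largest log2 change was 0.40 for CR46134, from 7.93 ± 0.485 to 10.8 ± 0.666 scaled FPKM (adjusted p = 0.00888). It lies opposite Wdr33, a gene of the polyadenylation machinery, which was not called (0.15). CR46144, CR45800, CR43979 and CR46048 rose by 0.38, 0.31, 0.28 and 0.27. CR45800 had 28.2, 28.4 and 28.6 in control and 35.5, 36.5 and 34.1 in knockdown normoxia, and its overlapping gene CG4360 rose by 0.27 (adjusted p = 0.0198). The calls of CR46144, CR45800, CR43979 and CR46048 were each lost without 2 or more single libraries.

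At 6% O2 the largest rises in knockdown were in CR45631, CR43868, CR44138, CR43144 and CR45233. CR45631, an lncRNA on 3R with no overlap, had 3.50, 2.97 and 5.07 scaled FPKM in control and 6.97, 7.09 and 8.03 in knockdown (log2 change 0.81 ± 0.22, adjusted p = 0.0167). CR43868 rose by 0.76, CR43144 by 0.51 and CR45233 by 0.43. CG10638, over 67.2% of the exonic bases of CR43868, moved by -0.05 and was not called. CG3919, opposite 12.5% of CR45233, rose by 0.41 (adjusted p = 0.0152). Each of these 5 calls was lost without at least 3 single libraries of the comparison.

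At 2% O2 the rises in knockdown were larger, with CR45018, CR45144 and CR43468 more than 2-fold above control. They are described with oxygen below, since their levels at normoxia and 6% O2 were low in both genotypes. CR45018 and CR43468 entered the set through their 2% O2 groups, so the size of their rises is only descriptive. CR44107, antisense to CG5835, had 14.9, 15.8 and 17.5 scaled FPKM in knockdown against 7.18, 12.7 and 7.20 in control (log2 change 0.81 ± 0.22, adjusted p = 0.0168), and the call was lost without control replicate 1 or 3. CR10102, a pseudogene 136 bases from the neuronal capsid gene Arc1, had 65.7, 52.4 and 63.7 against 31.7, 42.0 and 31.6 (0.78, adjusted p = 0.0421). Arc1 rose by 0.84, and the ratio of CR10102 to Arc1 was between 0.38 and 0.482 in all 18 libraries. How reads were divided between the pseudogene and Arc1 is uncertain, and the call of CR10102 was lost without any single library of the comparison except control replicate 2.

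At 6% O2 against normoxia no member was called in controls (0.00% of all genes called). There 21 members and 1329 of all genes had an unadjusted p under 0.05. In knockdown flies 1 member was called higher, CR44138, and none lower (0.448% of members, against 0.625% of all genes, 0.585% higher and 0.0403% lower). That call was lost without normoxia replicate 1 or 3 or 6% O2 replicate 1 or 3.

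At 2% O2 against normoxia 28 members rose and 25 fell in controls, 23.8% of the members against 30.1% of all genes. In knockdown 46 rose and 56 fell, 45.7% against 55.4%. Without knockdown 2% O2 replicate 3 that count was 82 instead of 102. Against 6% O2 instead of normoxia, 2% O2 gave 28 higher and 33 lower members in controls (32.1% of all genes called) and 46 higher and 56 lower in knockdown (51.7%), the latter 85 in all instead of 102 without knockdown 2% O2 replicate 3. In knockdown the 2% O2 libraries did not overlap those of normoxia for 112 members (62.3% of all genes) and those of 6% O2 for 115 (59.0%). In controls the libraries of normoxia and 2% O2 did not overlap for 78 members (44.0%). In every one of these the members' share was below that of all genes. Of 20 female germline markers 5 fell and 3 rose in controls at 2% O2 against normoxia, and 12 fell and 4 rose in knockdown. Of 16 eggshell markers 4 and 6 fell and none rose. The eggshell sum ran from 680.4 to 5206 scaled FPKM in control normoxia and from 316.9 to 2135 at 2% O2, and its part in the members' changes was not tested. The controls and knockdowns share no library in these comparisons. The same way in both genotypes against normoxia were 24 higher and 20 lower members, and none moved in opposite ways (14.3%, 12.0% and 0.212% of all genes). These 44 are 83.0% of the control calls and 43.1% of the knockdown calls, against 87.0% and 47.3% over all genes.

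CR44138 had the largest change of all members. It is an lncRNA with a single exon at bases 13376903 to 13377395 of 3R, within the locus of CG9813 on the opposite strand and sharing no exonic base with it. In control normoxia it had 1.22, 0.842 and 2.26 scaled FPKM, at 6% O2 2.99, 2.12 and 1.03, and at 2% O2 41.5, 36.9 and 50.1. In knockdown it had 0.837, 0.839 and 0.507 in normoxia, 3.57, 4.02 and 4.04 at 6% O2 and 52.8, 35.5 and 66.7 at 2% O2. The 2% O2 libraries of both genotypes lay above all 12 others by more than 8-fold, and in knockdown the 6% O2 libraries also lay above all normoxia libraries. Those 12 libraries were all under 5 scaled FPKM, so CR44138 entered the set through its 2% O2 groups. The tests of its rise at 2% O2 are therefore only descriptive. At 2% O2 the mean was 29.7 times that of normoxia in controls (log2 change 4.20 ± 0.26, adjusted p = 4.11e-08) and 70.9 times in knockdown (4.89 ± 0.26, adjusted p = 1.73e-09). CG9813 was not called in either, with log2 changes of 0.22 and 0.32. At 6% O2 the knockdown mean was 5.33 times that of normoxia (adjusted p = 0.0168), a call also lost with a pseudocount of 5. The difference of 0.73 between the genotypes at 6% O2 had an adjusted p of 0.0499 and was lost under 10 of 16 alternatives. The heat-shock gene Hsp70Bb, a stress-response marker, rose over the same groups from 0.608 to 30.7 scaled FPKM in controls and from 1.33 to 98.2 in knockdown.

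CR45018 is an lncRNA of 4000 bp at bases 13304005 to 13308004 of X, on the same strand as IP3K2, a gene of an inositol trisphosphate kinase, whose exons cover 35.8% of it. It had 6.09, 4.71 and 5.22 scaled FPKM in control normoxia and 12.9, 14.7 and 17.2 at 2% O2. In knockdown it had 3.81, 3.69 and 5.45 in normoxia and 38.4, 33.7 and 42.8 at 2% O2. The 2% O2 libraries stood above all others in both genotypes, and those of the knockdown above those of the control. Outside 2% O2 the mean of CR45018 was under 5 FPKM, so it entered the set through these groups. The tests of its rise, and of the difference in that rise between the genotypes, are therefore only descriptive. The log2 changes were 1.33 ± 0.16 in controls (adjusted p = 1.94e-05) and 2.89 ± 0.16 in knockdown (adjusted p = 1.75e-09). Between the genotypes the difference was 1.57 ± 0.23 (adjusted p = 0.00124 by limma). IP3K2 rose by 0.39 and 1.47, so the ratio of CR45018 to IP3K2 went from a mean of 0.512 in control normoxia to 1.06 in control and 1.66 in knockdown at 2% O2. Reads of the shared exons could have been divided between the same-strand genes.

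CR43468, at bases 12875164 to 12877280 of 2R, lies opposite Lfg, a gene of the Lifeguard family of cell-death inhibitors, with 71.5% of its exonic bases under exons of the opposite strand. It rose from 3.92, 3.00 and 5.22 to 8.12, 9.97 and 10.9 scaled FPKM in controls, and from 2.69, 3.86 and 3.29 to 22.4, 17.99 and 22.6 in knockdown, with no overlap. Outside 2% O2 the mean of CR43468 was under 5 FPKM. The tests of its rise and of the difference between the genotypes are therefore only descriptive, as for CR45018. The log2 changes were 1.10 ± 0.19 (adjusted p = 0.000499) and 2.36 ± 0.19 (adjusted p = 8.71e-08), with a difference of 1.27 ± 0.27 (adjusted p = 0.0124). Lfg rose by 1.61 and 2.85, from 1.86 ± 0.143 to 7.80 ± 1.02 in controls and from 1.34 ± 0.217 to 15.9 ± 0.904 in knockdown. Member and opposite gene thus rose together, Lfg by more than CR43468 in each genotype.

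CR45144 differed from these. It lies at bases 17036695 to 17037982 of 2R opposite RhoGEF2, and 83.2% of its exonic bases are under RhoGEF2 exons. Control libraries had 7.25, 8.17 and 8.48 scaled FPKM in normoxia, 9.57, 9.19 and 9.05 at 6% O2 and 8.33, 8.63 and 9.83 at 2% O2. Knockdown libraries had 8.51, 7.99 and 7.98 in normoxia, 8.58, 8.50 and 8.66 at 6% O2 and 23.6, 20.4 and 22.2 at 2% O2. The 3 knockdown 2% O2 libraries lay more than 2-fold above each of the other 15. The change at 2% O2 was 1.33 ± 0.07 in knockdown (adjusted p = 2.2e-09) and its difference from the control response was 1.18 ± 0.11 (adjusted p = 2.74e-05). RhoGEF2 had 16.1 ± 0.507 scaled FPKM in control normoxia and 18.7 ± 1.28 in knockdown 2% O2, and its own difference between the genotypes was 0.07 (adjusted p = 0.626). The ratio of CR45144 to RhoGEF2 lay between 0.447 and 0.538 in those 15 libraries and between 1.12 and 1.25 in the knockdown 2% O2 libraries.

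CR45894, described above as lower in knockdown, rose at 2% O2 from 15.2 ± 2.14 to 34.7 ± 3.29 scaled FPKM in controls (log2 change 1.15 ± 0.09, adjusted p = 5.1e-07) and from 9.63 ± 0.828 to 26.1 ± 1.54 in knockdown (1.35 ± 0.09, adjusted p = 1.63e-08). Pdh rose with it, by 0.73 and 1.44. Of the 15 photoreceptor markers 2 rose in controls and 9 in knockdown at 2% O2, with summed levels of 2645 to 2926 and 2479 to 2695 scaled FPKM, and their part was not tested. CR46071 lies opposite the tetraspanin gene Tsp29Fa over 96.4% of its exonic bases. It rose from 17.6 ± 4.99 to 29.7 ± 3.51 in controls (0.76, adjusted p = 0.019) and from 16.9 ± 4.48 to 37.6 ± 2.09 in knockdown (1.13, adjusted p = 0.000627). The control call was lost without normoxia replicate 2, without 2% O2 replicate 1 or 3 and in a fit of the compared groups alone. The ratio of CR46071 to Tsp29Fa had group means between 1.44 and 1.64 throughout.

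CR43196, the lncRNA in the lute locus, had the largest fall at 2% O2. It went from 16.2, 17.2 and 19.7 scaled FPKM to 1.61, 3.50 and 3.43 in controls, and from 9.48, 10.4 and 8.44 to 0.611, 0.149 and 2.67 in knockdown. All 6 libraries at 2% O2 lay below the 12 others. The log2 changes were -2.32 ± 0.31 (adjusted p = 5.94e-05) and -2.46 ± 0.31 (adjusted p = 1.02e-05). lute stayed between 15.9 and 19.6 in all libraries and was called in none of these comparisons. At levels under 1 FPKM a library rests on few reads.

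CR42491 on X is an lncRNA on the same strand as the ribosomal protein gene RpL22, whose exons cover 50.5% of its exonic bases. It fell from 49.7, 33.2 and 40.8 scaled FPKM to 15.5, 18.5 and 16.1 in controls and from 54.0, 53.4 and 52.2 to 17.5, 15.1 and 18.5 in knockdown. No 2% O2 library reached a library of the other oxygen levels, and the log2 changes were -1.24 ± 0.13 (adjusted p = 6.29e-06) and -1.59 ± 0.13 (adjusted p = 9.92e-08). RpL22, at 1668 ± 101 in control normoxia, was not called in controls (0.08) and rose by 0.17 in knockdown (adjusted p = 0.0303). The ratio of CR42491 to RpL22 fell from a mean of 0.0247 to 0.00948 in controls and from 0.0319 to 0.00905 in knockdown.

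CR43250, an lncRNA of 558 bp on 3L with no gene over it, had 50.2, 65.1 and 73.1 scaled FPKM in control normoxia and 37.9, 35.7 and 41.4 at 2% O2. In knockdown it had 54.4, 52.0 and 41.9 in normoxia and 16.9, 13.6 and 18.6 at 2% O2, the lowest of all groups and apart from every other library. It fell by 0.68 in controls (adjusted p = 0.00123) and by 1.54 in knockdown (adjusted p = 2.16e-07). The difference between the responses was -0.86 ± 0.19 (adjusted p = 0.0145).

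CR45885 on 3L lies opposite Sugb over 88.2% of its exonic bases. It had 18.01, 18.1 and 18.5 scaled FPKM in control normoxia and 10.1, 8.84 and 11.0 at 2% O2, and 20.1, 18.9 and 19.5 against 8.71, 8.87 and 7.83 in knockdown. The groups did not overlap, and the log2 changes were -0.81 (adjusted p = 3.85e-06) and -1.11 (adjusted p = 2.94e-08). Sugb fell by 0.65 and 1.02, and the ratio between the genes kept group means between 1.10 and 1.24. CR44045, which lies wholly under exons of Axn, a scaffold gene of Wnt signalling, fell by 1.17 in controls from 11.8 ± 3.21 to 4.61 ± 0.392 (adjusted p = 6.51e-05) and by 0.75 in knockdown (adjusted p = 0.000985). Axn fell by 0.29 and 0.65. CR43264 fell by 0.92 and 1.12 (adjusted p = 0.0246 and 0.00374) and CR45192 by 0.95 in controls (adjusted p = 0.0276). Both control calls were lost without 3 or more single libraries. CR45192, like CR44321, reaches 5 FPKM only through its highest group.

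**Figure D4:**
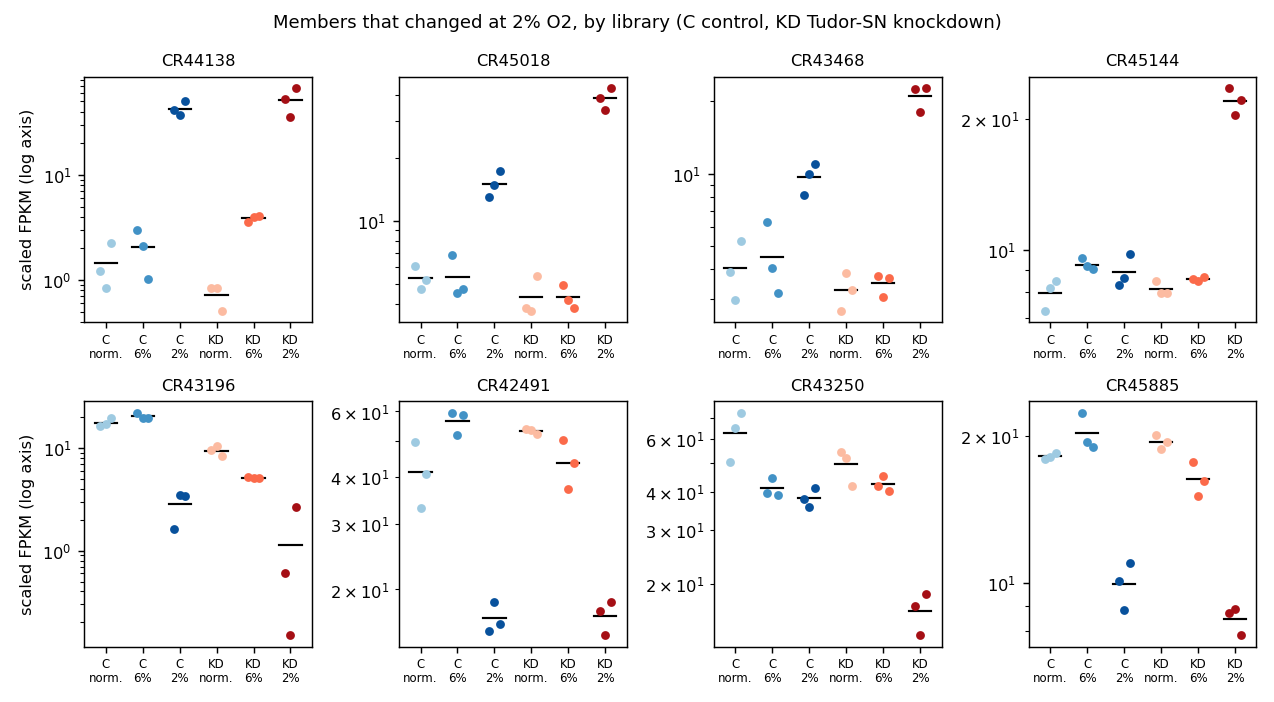
Scaled FPKM of 8 members that changed at 2% O2, on log axes that differ between panels. Points are the 3 libraries of each group, bars are means, C is control (blue) and KD knockdown (red). CR45144 is raised in the knockdown 2% O2 libraries only, at 20.4 to 23.6 against 7.25 to 9.83 in the other 15, while CR44138 and CR42491 move at 2% O2 in both genotypes.

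The response to 2% O2 differed between the genotypes for 8 members, 4 in each direction (3.59% of members, against 7.64% of all genes, 5.43% higher and 2.21% lower). Besides CR45018, CR43468, CR45144 and CR43250 these were CR45485 (0.48), CR45397 (-0.45), CR44986 (-0.33) and CR44065 (-0.31). CR45485 fell by 0.68 in controls, from 29.0 ± 1.45 to 17.8 ± 1.44 scaled FPKM. In knockdown it was already at 21.0 ± 0.0900 in normoxia and had 18.2 ± 1.19 at 2% O2. CR45397, opposite CG32147, had 31.3 ± 3.49 and 27.7 ± 1.61 in control normoxia and 2% O2, and 36.6 ± 1.17 and 23.6 ± 2.67 in knockdown. CR44986 lies wholly under exons of Gpdh, a glycerol phosphate dehydrogenase gene. It had 59.2 ± 0.899 in knockdown normoxia and 47.7 ± 2.98 at 2% O2, and 53.9 ± 2.62 and 54.9 ± 3.50 in controls. The calls of CR45485, CR45397, CR44986 and CR44065 were each lost without 5 or more single libraries, whereas those of CR45018, CR43468, CR45144 and CR43250 held under every alternative. For CR45018 and CR43468, which entered the set through their 2% O2 groups, these calls are only descriptive. Without knockdown 2% O2 replicate 2 the count of 8 became 15, without knockdown normoxia replicate 3 it became 4, and without control normoxia replicate 3, knockdown normoxia replicate 1 or knockdown 2% O2 replicate 1 it became 5. For 6% O2 no member was called (0.00% of all genes), with 22 members and 1017 genes at an unadjusted p under 0.05.

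For 169 of the 174 members with overlapping exons the ratio could be formed in every library. Its group means spanned a median of 1.23-fold, against 1.33-fold for the members and 1.28-fold for the overlapping genes. The ratio spanned less than 1.5-fold in 134 pairs. Of 16 members whose own level spanned at least 2-fold, 7 kept the ratio within 1.5-fold and the others did not. These were CR44321, CR42860, CR45894, CR44107, CR45161, CR46071 and CR45885, of which CR42860 and CR45161 were named after their values were seen.

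CR45161 also varied within groups. It lies opposite fln, the gene of the flight-muscle protein flightin, over 77.5% of its exonic bases, and had 205, 84.4 and 93.7 scaled FPKM in control normoxia and 37.9, 19.8 and 101 in knockdown 2% O2. The libraries of a group thus differed by up to 5-fold, and its ratio to fln kept group means between 2.96 and 3.50. CR42860, opposite the titin gene sls, is another in a muscle gene. The 15 muscle markers, which include fln and sls, summed to between 5331 and 8238 scaled FPKM in control normoxia and to between 3971 and 6745 in knockdown 2% O2, and their part in these levels was not tested.

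Where members were called at 2% O2 in knockdown, 85 had an overlapping gene by exons, and 83 of those genes were tested. Of these, 57 were called the same way, 3 the opposite way and 23 were not called. Over all genes 28.5% were called higher and 27.0% lower. In controls 45 called members had a tested overlapping gene, with 26 called the same way, none the opposite way and 19 not called. There 15.4% of all genes were called higher and 14.7% lower. In knockdown against control the same way held for 7 of 20 in normoxia, 10 of 26 at 6% O2 and 9 of 28 at 2% O2. The opposite way held for none in normoxia, 2 at 6% O2 and none at 2% O2. Those 2 were CR42862 with CG33229 and CR45397 (0.27) with CG32147 (-0.37). Of all genes 5.90%, 12.0% and 11.7% were called higher and 10.1%, 12.6% and 8.50% lower in these comparisons. Because strand is not known, a shared direction cannot be told apart from shared reads. At 2% O2 against normoxia in knockdown the 3 opposite pairs included CR42491 with RpL22. The others were CR43430 (-0.35) with the adducin gene hts (0.17) and CR46195 (0.34) with the poly(A) polymerase gene Trf4-1 (-0.31). These others were chosen after their values were seen.

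**Figure D5:**
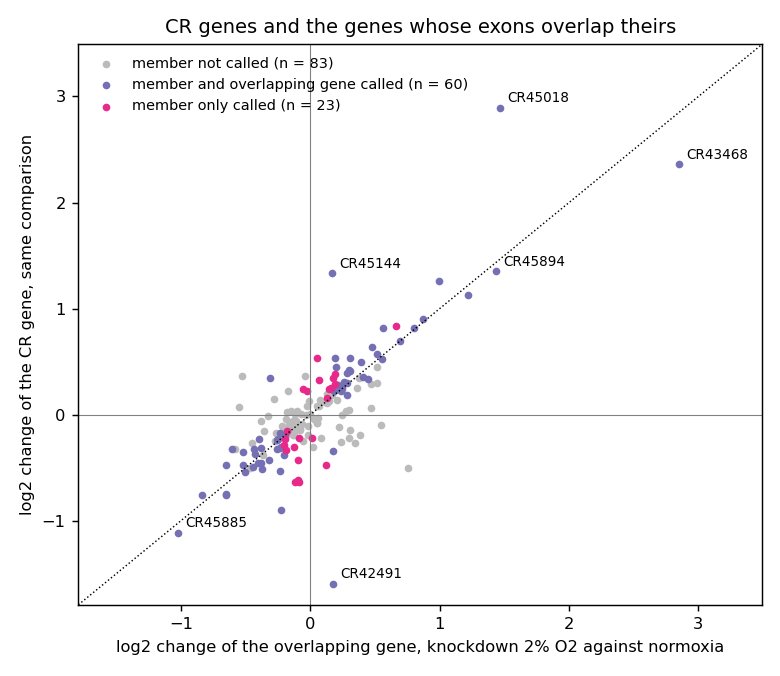
Log2 change in knockdown flies at 2% O2 against normoxia of each member (vertical axis) and of the gene whose exons overlap its own (horizontal axis), for pairs with both genes tested. Points on the dotted line changed equally; purple marks pairs with both genes called, pink members called alone and grey members not called. CR45144, CR45018 and CR42491 lie far from the line, and CR43468 lies below it, while CR45894 and CR45885 lie close to it.

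The 49 members without overlapped exons cannot share exonic reads with an annotated gene in this way. Of them 4 were called in knockdown against control in normoxia (8.16%, against 16.0% of all genes), 13 at 6% O2 (26.5%, against 24.7%) and 8 at 2% O2 (16.3%, against 20.2%). At 2% O2 against normoxia 8 were called in controls (16.3%, against 30.1% of all genes) and 17 in knockdown (34.7%, against 55.4%), 13 of these lower. Among the 174 with overlapped exons 48.9% were called in the last comparison. By class, 37 of 144 antisense RNAs rose and 32 fell in knockdown at 2% O2, against 6 and 13 of the 41 lncRNAs and 3 and 11 of the 37 pseudogenes, beside 28.5% and 27.0% of all genes. No test of the difference between these classes was made.

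Some pseudogene values are uncertain one by one. On X between bases 20178755 and 20225979 lie CR33491, CR33487, CR46272, CR46273 and CR33498, singled out after their values were seen. The first of these is next to Sdic1, a gene of a tandemly repeated family. CR46273, CR33491, CR33487 and CR46272 had means of 5.73, 5.73, 5.72 and 5.72 FPKM and CR33498 had 9.32, and how reads were divided between such copies is not given in the sources used here.

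A list of well-known genes with names of their own, taken as non-coding RNA genes, gives the context. Their coding status was not checked. Of 38 listed, 29 were in the tables and 16 had a mean of at least 1 FPKM. At 2% O2 against normoxia 3 rose and none fell in controls, and 4 rose and 1 fell in knockdown. The stress-induced nuclear RNA Hsromega rose from 83.6 ± 9.88 to 172 ± 22.1 scaled FPKM in controls and from 67.0 ± 3.22 to 234 ± 9.27 in knockdown. The transcription regulator snRNA:7SK went from 1.61 ± 0.348 to 7.26 ± 0.744 and from 1.43 ± 0.611 to 12.1 ± 4.50. The RNA was poly-dT-selected, so these values need not follow the total amount of an RNA without a poly(A) tail. In knockdown against control 1 of the 16 was lower in normoxia and 5 at 6% O2, and none was higher. At 2% O2 2 were lower and 2 higher, the latter being Hsromega (0.45, adjusted p = 0.00599) and 7SLRNA:CR32864 (0.93, adjusted p = 0.0436). Hsromega was itself among the 5 lower at 6% O2 (-0.455, adjusted p = 0.00708 by limma). In normoxia its change of -0.310 was not called (adjusted p = 0.0515). The lower one in normoxia was noe, which fell from 211 ± 48.3 to 77.5 ± 6.39 (log2 change -1.41 ± 0.15, adjusted p = 0.000109). No libraries of the genotypes overlapped for noe.

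Across the comparisons 79 members passed the test in none, whereas 75.7% of all genes were called in at least 1 comparison. In each comparison with any call, the share called, counting both directions, was lower among the members than among all genes.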

How the data were processed

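The authors deposited 1 FPKM table per library made from poly-dT-selected RNA with a BGISEQ-500 instrument, per the labels' protocols. Cufflinks, TopHat2 and HTSeq on build BDGP6 are named per the submitters' processing notes, and their versions are not given in the sources used here. FPKM are relative to each library's total. An exact 0 can be a failed estimate. No read totals are given, so counting error could not be computed.

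Values were divided by median-of-ratios factors (0.947 to 1.04, from 9068 genes) and called scaled FPKM. Log2(scaled FPKM + 1) was fitted with limma 3.58.1 (R 4.3.3) for the 9921 genes whose mean reached 1 FPKM. The fit used 6 group means, all 18 libraries and eBayes with trend and robust options, with Benjamini-Hochberg adjustment in each of 11 comparisons. The script was tested on simulated data. The 6 highest members were named, as were up to 5 called members each way by size of change (3 in the lesser comparisons), those called in the same direction in repeated comparisons, those whose response differed between genotypes, and their overlapping or nearest genes.

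Classes, exons and overlaps came from Ensembl release 115 of BDGP6.54, in which 217 members had identical coordinates. Coordinates are 1-based, and the deposited starts were converted to this form. Any pair of libraries shared at most 2 identical values above 0. Promoter motifs were planned and are not analysed here. The members, gene lists and tests were chosen with earlier results of these data known. Figures were drawn with matplotlib 3.10.9. Pseudocounts, filters, scalings, array weights, fits of the compared groups alone, a replicate block and left-out libraries were tried as alternatives.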

Additional observations from a re-analysis of the deposited data

Results flagged for a closer look

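For 8 members the response to 2% O2 differed between knockdown and control flies by the test of the difference itself (limma, Benjamini-Hochberg adjusted p under 0.05). The response in knockdown minus that in control was 1.57 for CR45018, 1.27 for CR43468, 1.18 for CR45144 and 0.48 for CR45485 on the log2 scale. It was -0.31 for CR44065, -0.33 for CR44986, -0.45 for CR45397 and -0.86 for CR43250. For CR45018 and CR43468 this test is only descriptive, since they entered the set through their 2% O2 groups. The overlapping genes IP3K2 and Lfg also differed, by 1.07 (adjusted p = 0.00307) and 1.24 (adjusted p = 0.00376). RhoGEF2, opposite CR45144, had a difference of 0.07 (adjusted p = 0.626). Groups of 3 libraries are too small for a test of single outlying libraries.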

How the results depend on the processing

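Of 85 changes of named members 56 stayed called under every alternative, and none of 1408 alternative values changed sign. The 85 were picked because they were called in these same data, and several share genes and libraries. A kept sign is therefore weak support. Of the 147 values that lost the call 114 came from leaving out a library. Array weights raised the count of called members in knockdown against control to 54 in normoxia, 60 at 6% O2 and 59 at 2% O2. They also raised it to 8 at 6% O2 against normoxia in knockdown, to 32 and 2 for the difference between genotypes at 2% and 6% O2, and to 10 for members called the same way at all 3 oxygen levels (1 higher, 9 lower). In fits of the compared groups alone these counts were 18 for knockdown against control at 2% O2, 3 at 6% O2 against normoxia in knockdown and 3 at all 3 oxygen levels. A pseudocount of 5 left 0 at 6% O2 in knockdown. The cause was not tested. Leaving out single libraries gave 13 to 35, 10 to 40 and 19 to 31 members in knockdown against control at normoxia, 6% and 2% O2. The ranges were 42 to 43 and 82 to 104 at 2% O2 against normoxia in control and knockdown, 46 to 54 and 85 to 96 against 6% O2, 0 to 1 at 6% O2 in knockdown, 4 to 15 and 0 to 0 for the differences between genotypes at 2% and 6% O2, and 0 to 0 at 6% O2 in control. They were 4 to 6 at all 3 oxygen levels and 36 to 44 for both genotypes at 2% O2. Deviations of same-numbered libraries from their group means had correlations from -0.325 to 0.25, above 0.1 in 11 of 45 pairs. Libraries with different numbers were not compared, so this cannot decide whether the numbers pair the samples. The main fit used no pairing. With a replicate block the counts for knockdown against control were 30, 38 and 36, and 53 and 103 at 2% O2 against normoxia. Tudor-SN stayed called in every alternative, with log2 changes from -3.40 to -3.31, -3.79 to -3.60 and -4.74 to -4.64 without single libraries. An overlap of at least 50% of the member locus was met by 169 members instead of 186. FPKM without read totals limits the precision of members under about 1 FPKM in a group.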
